A study of Mus musculus with 4 samples.

Results

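Cytochromes P450 of families 1 to 3 are the haem enzymes with which the liver oxidises drugs, steroids, fatty acids and environmental chemicals. They were followed here in mouse livers from a design that crossed a carcinogen with a bile acid diet. The members were all genes whose annotated symbol stands alone on a probe set and names a P450 of family 1, 2 or 3, without Cyp2c70, a bile acid hydroxylase. This gave 42 of the 18194 genes with a value, of which 32 were expressed. A gene was called expressed where its values on the 4 arrays averaged 4.851 or more on the log2 scale, the median of all probe sets, and 11664 genes of the array met this. The subfamilies counted 2 genes for 1a, 1 for 1b, 1 for 2a, 4 for 2b, 10 for 2c, 8 for 2d, 5 for 2j and 5 for 3a, and 2e, 2f, 2g, 2r, 2s and 2u had 1 each. Probe sets annotated to several genes were left out, 2 of them for these families, so that 2a rests on Cyp2a12 alone.

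The 4 groups were livers of mice given diethylnitrosamine (DEN) and then a diet with 0.2% cholic acid (CA), DEN and then control diet, CA diet without DEN, and control diet without DEN. DEN is a nitrosamine that initiates liver tumours in mice and needs oxidation by P450 enzymes, chiefly Cyp2e1, to become reactive. CA is a primary bile acid. All mice were 10 months old, and each group was 1 array on which the RNA of 3 to 5 pooled livers was measured. The labels used here name neither strain nor sex, DEN dose or feeding time, nor the amount of tumour tissue in each pool, although the series title speaks of tumours. With 1 array per group there is no replicate: no test was made, no difference can be set against a spread between mice, and all differences below are those of 2 pools.

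P450 genes are known for being switched on by foreign compounds through 3 receptors. The constitutive androstane receptor CAR (gene Nr1i3) drives Cyp2b10 and several 2c genes, the pregnane X receptor PXR (Nr1i2) drives Cyp3a11, and the aryl hydrocarbon receptor AhR (Ahr) drives the family 1 genes. Lithocholic acid, a secondary bile acid, is a known activator of PXR. Several 2b, 2c, 2d and 3a genes of the mouse liver also differ between the sexes under growth hormone, and others, Cyp2e1 and Cyp1a2 among them, are expressed around the central vein.

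The 4 arrays had medians from 4.843 to 4.865. Among 18 control probe sets that read spiked hybridization standards, the largest difference was 0.305 in size for the CA diet without DEN, 0.203 for DEN on the control diet, 0.267 for the CA diet after DEN and 0.370 for DEN on the CA diet. The labelled tissue was borne out by its markers: the 8 measured hepatocyte genes, Alb and Ttr among them, averaged 13.83 in the DEN with CA pool, 13.86 in the DEN pool, 13.91 in the CA pool and 13.77 in the control pool. The Y-linked genes Eif2s3y, Kdm5d and Uty were measured between 6.39 and 9.60 in all 4 pools. Xist, the X-inactivation RNA of females, lay between 3.51 and 3.87, below 4.851. Every pool thus had the pattern of male livers, although the labels do not name the sex.

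The sequences just before the start site are given for the 2b genes because they held the largest differences of any member after DEN, in both directions. The sequences are those of RefSeq for GRCm38.p6 and run over the 250 bases before the annotated start, 5′ to 3′ along the gene. Capitals mark AGGTCA, the half-site of nuclear receptors such as CAR and PXR, GCGTG, the core of the AhR element, or TATAAA, the TATA box, each searched on both strands; no match of one overlapped another. These 2b genes lie on the + strand, at chr7:26173159-26173408 for Cyp2b9, chr7:26061245-26061494 for Cyp2b13 and chr7:25897408-25897657 for Cyp2b10.
Cyp2b9: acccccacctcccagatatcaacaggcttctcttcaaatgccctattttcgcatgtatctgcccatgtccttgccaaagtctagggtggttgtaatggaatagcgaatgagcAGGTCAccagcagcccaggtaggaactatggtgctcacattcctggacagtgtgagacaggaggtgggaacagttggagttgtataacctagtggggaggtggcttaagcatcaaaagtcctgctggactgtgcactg
Cyp2b13: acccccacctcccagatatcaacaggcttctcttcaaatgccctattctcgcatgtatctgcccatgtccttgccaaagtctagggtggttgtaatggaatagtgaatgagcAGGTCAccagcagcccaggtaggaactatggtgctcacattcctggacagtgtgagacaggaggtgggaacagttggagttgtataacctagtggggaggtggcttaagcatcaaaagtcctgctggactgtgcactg
Cyp2b10: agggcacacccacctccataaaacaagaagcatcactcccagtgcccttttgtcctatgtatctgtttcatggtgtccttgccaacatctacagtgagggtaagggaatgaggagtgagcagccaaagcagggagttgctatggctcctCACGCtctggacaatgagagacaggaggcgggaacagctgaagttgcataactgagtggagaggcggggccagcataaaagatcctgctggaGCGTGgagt

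Cyp2b9 and Cyp2b13 shared 248 of the 250 bases. From 1 at the 5′ end the changes were T48C and C104T, with the base of Cyp2b9 first. Each held 1 AGGTCA, 138 bases before the start. Cyp2b10 matched each of them in 186 of 262 aligned columns (71.0%), held no AGGTCA in this window and had 2 GCGTG matches, 101 and 9 bases before the start, of which the first reads on the opposite strand.

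The family 1 pair is shown because its members differed in opposite directions in the pool that received both treatments. Cyp1a1 lies on the + strand at chr9:57697363-57697612 and Cyp1a2 on the - strand at chr9:57683656-57683905.
Cyp1a1: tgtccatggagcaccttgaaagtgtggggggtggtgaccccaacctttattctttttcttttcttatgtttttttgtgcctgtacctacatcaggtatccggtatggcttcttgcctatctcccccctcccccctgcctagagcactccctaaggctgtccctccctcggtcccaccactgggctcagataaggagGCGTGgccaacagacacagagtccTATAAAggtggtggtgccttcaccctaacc
Cyp1a2: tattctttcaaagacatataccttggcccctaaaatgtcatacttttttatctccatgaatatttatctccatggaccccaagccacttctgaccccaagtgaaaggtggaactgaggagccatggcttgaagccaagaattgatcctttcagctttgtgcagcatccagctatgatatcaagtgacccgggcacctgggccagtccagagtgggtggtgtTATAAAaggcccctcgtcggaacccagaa

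Both had a TATAAA, 30 bases before the start in Cyp1a1 and 29 in Cyp1a2. Cyp1a1 had 1 GCGTG 54 bases before the start, and this window of Cyp1a2 had none. Over all 32851 promoters of the table, AGGTCA stood in 14.0%, GCGTG in 28.2% and TATAAA in 12.4%. Of the 26 expressed members with an entry, 8 (30.8%) held AGGTCA, 4 (15.4%) GCGTG and 14 (53.8%) TATAAA. A match is a description of the letters and not a binding site.

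**Figure D1:**
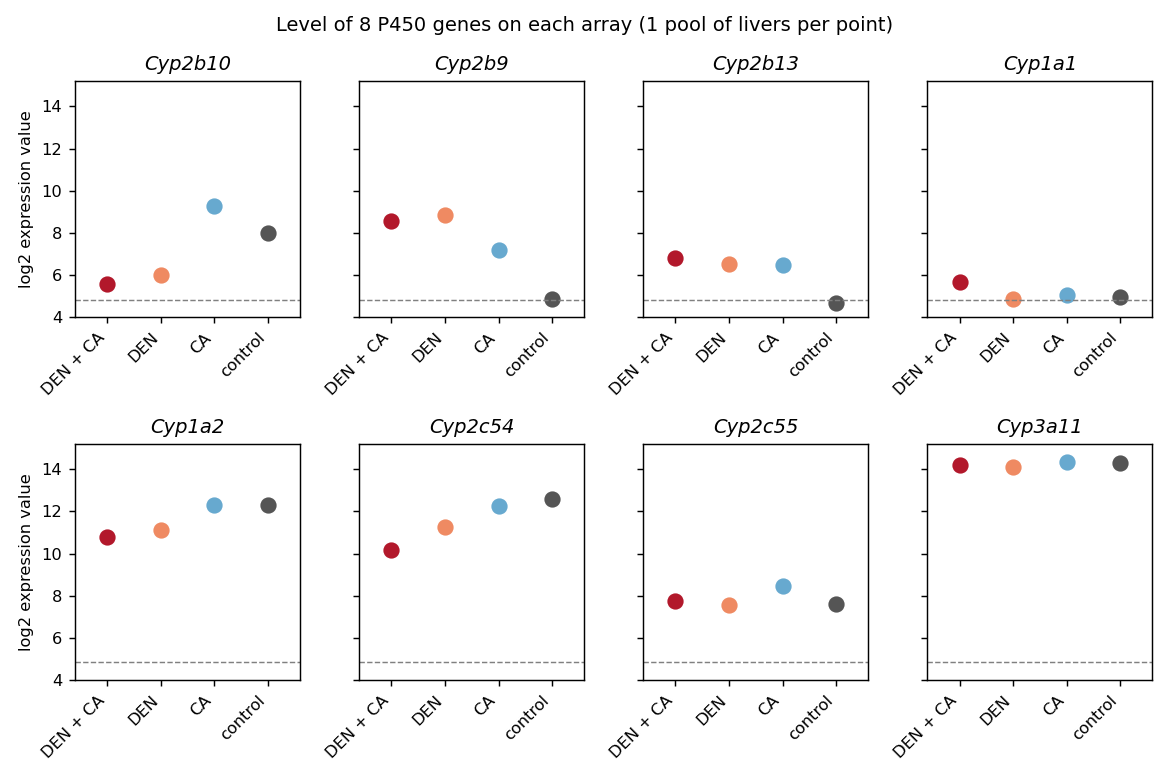
Log2 expression values of 8 P450 genes (vertical axis) on the 4 arrays, 1 point per array of pooled livers, with the dashed line at 4.851, the median of all probe sets. Cyp2b10 is lowest and Cyp2b9 and Cyp2b13 are raised in both DEN pools, while Cyp3a11 stays between 14.12 and 14.35; levels of different genes are not comparable.

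The first question is which of these genes differed in livers after DEN. On the control diet, 27 of the 32 expressed members were lower in the DEN pool than in the control pool, where 45.2% of all expressed genes were lower. Setting the expressed genes of all arrays to a common median (centring) shifted the median of all genes by -0.16 in this comparison, and then 29 of 32 members and 64.9% of all expressed genes were lower. Without the centring, the median log2 difference was -0.48, against 0.04 over all expressed genes. In the DEN pool 5 members were lower by 2-fold or more (background 0.900%), and 2 were higher by that much (background 5.12%). With the centring, 7 were lower by 2-fold (background 1.65%) and 2 higher (background 3.91%), and the calls over all expressed genes were 456 higher and 192 lower, against 597 higher and 105 lower without it. On the CA diet, DEN with CA against CA, 26 of 32 were lower (background 49.2%), with a median of -0.60 against 0.00 over all expressed genes. There 8 were lower by 2-fold or more (background 1.75%) and 1 was higher (background 4.75%). The 2 comparisons share no array. Cyp1a2, Cyp2b10, Cyp2c54, Cyp2d13 and Cyp2g1 passed 2-fold downwards on both diets (5 of 32, background 0.703%), and with Cyp2c37, Cyp2c50 and Cyp2j5 there were 8 that did so on either diet (background 1.95%). Cyp2b9 passed 2-fold upwards on both (1 of 32, background 3.47%), and Cyp2b13 on the control diet. Cyp2g1 is counted by its measured values, although both DEN pools lie under 4.851 for it. Both DEN pools lay below both pools without DEN for 24 of 32 members (background 28.7%) and above them for 3 (background 34.3%). In RNA of whole livers, fewer hepatocytes and less P450 RNA per hepatocyte cannot be told apart. The hepatocyte markers had medians of -0.03 on the CA diet and -0.01 on the control diet, and several of them, Alb, Ttr and Serpina1c among them, lay close to the highest values of the arrays, where differences can be compressed. Of 34 measured markers of other cell types, 32 were above 0 after DEN on the CA diet and 25 on the control diet. Of them 11 and 13 were higher by 2-fold or more, and none was lower by 2-fold. These markers include lung club cell and intestinal epithelium genes, and the intestinal genes Vil1 and Cdh17 were higher by 2-fold on both diets. Some markers were not expressed by the limit used, whereas the array counts that follow are for expressed genes only. Of all 11664 expressed genes, 5892 were above 0 on the CA diet and 6358 on the control diet. Those higher by 2-fold or more were 4.75% and 5.12%, and those lower by that much 1.75% and 0.900%. The 5 cholangiocyte genes averaged 6.61 in the DEN with CA pool, 6.31 in the DEN pool, 4.65 in the CA pool and 4.37 in the control pool. Most of this was Tspan8, with 11.75, 11.38, 3.92 and 3.69 in this order, and without it the other 4 averaged 5.32, 5.04, 4.83 and 4.55. Epcam stood at 0.11 on the CA diet and -0.05 on the control diet, and Krt7 was below 4.851 on every array. The 5 stellate cell and fibroblast genes averaged 7.18 in the DEN with CA pool, 7.28 in the DEN pool, 6.47 in the CA pool and 6.39 in the control pool, with Acta2 at 2.15 and 1.94 after DEN on the CA and control diets and Lrat at -0.39 and -0.41. The 2 expressed T and NK cell genes, Cd3e and Cd8a, had medians of 0.03 on the CA diet and -0.15 on the control diet. All 4 measured ones had medians of 0.36 and 0.45. The others, not expressed by the limit used, were Cd3g at 0.41 and 1.11 and Nkg7 at 1.08 and 0.98. The part of these cells in the P450 values was not tested.

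**Figure D2:**
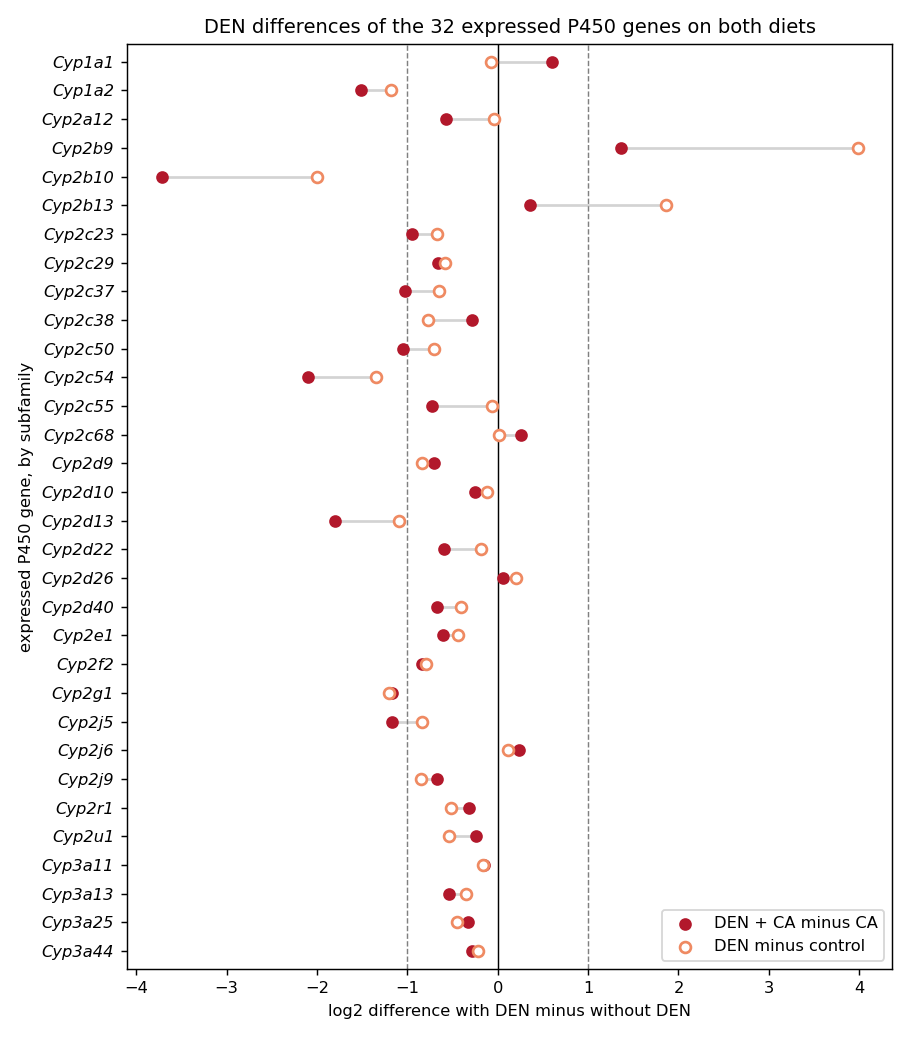
Log2 differences with DEN minus without DEN (horizontal axis) of the 32 expressed P450 genes, filled for the CA diet and open for the control diet, with dashed lines at 2-fold. Most genes lie left of 0 on both diets, Cyp2b10 farthest, and Cyp2b9 and Cyp2b13 lie right of it.

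Among the members driven by CAR, Cyp2b10, the classical gene induced by phenobarbital, had the largest decrease. Its level was 5.59 in the DEN with CA pool, 5.99 in the DEN pool, 9.30 in the CA pool and 7.99 in the control pool. It was thus 4.00-fold lower after DEN on the control diet and 13.2-fold lower on the CA diet. All 3 probe sets of Cyp2b10 were lower after DEN, between -2.05 and -1.10 on the control diet and between -4.35 and -2.37 on the CA diet. Both with the larger decreases are of a kind (_s_at) that can read related transcripts. The probe set at -4.35 read 4.43 in the DEN with CA pool, under 4.851, so the size of that decrease is uncertain.

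Next in size was Cyp2c54, one of the arachidonic and linoleic acid epoxygenases of the mouse liver, which had 10.16 in the DEN with CA pool, 11.25 in the DEN pool, 12.27 in the CA pool and 12.59 in the control pool. It was 2.55-fold lower after DEN on the control diet and 4.29-fold lower on the CA diet. Its relatives Cyp2c37 and Cyp2c50 did the same to a smaller degree. Cyp2c37 had 10.82 in the DEN with CA pool, 11.19 in the DEN pool, 11.85 in the CA pool and 11.83 in the control pool. Cyp2c50 had 12.35, 12.63, 13.40 and 13.33 in this order. After DEN they stood at -1.03 and -1.05 on the CA diet and at -0.64 and -0.70 on the control diet. In the RefSeq order of the measured 2c genes, these 3 follow each other directly as Cyp2c37, Cyp2c54 and Cyp2c50. Of the 8 expressed 2c genes, only these 3 passed 2-fold between the DEN with CA pool and the CA pool (background 1.75% lower).

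Cyp2c54, which lies between Cyp2c37 and Cyp2c50, had no entry among the promoter sequences used. The upstream sequences of Cyp2c37 and Cyp2c50 are shown because these genes had like differences. These sequences matched in 215 of 255 aligned columns (84.3%) and held none of the 3 motifs. They lie on the + strand at chr19:39992174-39992423 and chr19:40089429-40089678.
Cyp2c37: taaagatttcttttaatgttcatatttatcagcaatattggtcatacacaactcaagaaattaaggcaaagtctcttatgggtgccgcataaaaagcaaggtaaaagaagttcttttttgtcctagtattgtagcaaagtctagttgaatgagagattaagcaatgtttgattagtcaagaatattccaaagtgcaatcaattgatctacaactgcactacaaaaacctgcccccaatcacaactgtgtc
Cyp2c50: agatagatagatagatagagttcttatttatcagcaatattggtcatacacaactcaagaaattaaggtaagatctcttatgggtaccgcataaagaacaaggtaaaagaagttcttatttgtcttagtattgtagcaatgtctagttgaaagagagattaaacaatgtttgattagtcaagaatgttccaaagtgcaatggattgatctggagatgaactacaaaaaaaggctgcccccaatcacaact

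Other 2c genes differed less after DEN. Cyp2c29, a CAR-induced gene, had 12.59 in the DEN with CA pool, 12.48 in the DEN pool, 13.24 in the CA pool and 13.06 in the control pool, a difference of -0.66 on the CA diet and -0.58 on the control diet. Cyp2c55, induced through both CAR and PXR, had 7.73, 7.54, 8.46 and 7.60 in this order, so that only the CA pool stood out. Cyp2c68 was the only expressed 2c member not lower after DEN, at 0.25 on the CA diet and 0.02 on the control diet. Of the 7 P450 genes listed as CAR-responsive, all 7 were lower after DEN on each diet, 4 of them by 2-fold or more on the CA diet and 2 on the control diet (medians -1.03 and -0.64). Over all expressed genes, 49.2% were lower on the CA diet and 45.2% on the control diet, 1.75% and 0.900% by 2-fold or more.

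The 3a genes, the main targets of PXR, differed little. Cyp3a11, the major 3a enzyme of the mouse liver, had 14.20 in the DEN with CA pool, 14.12 in the DEN pool, 14.35 in the CA pool and 14.28 in the control pool. Cyp3a13 had 10.33, 10.31, 10.87 and 10.65 in this order. All 4 expressed 3a genes were lower after DEN on both diets but none by 2-fold. Their medians were -0.31 on the CA diet and -0.28 on the control diet. The background was 49.2% lower on the CA diet and 45.2% on the control diet, with all-gene medians of 0.00 and 0.04. Cyp3a11 is close to the top of the range of this array, where differences can be compressed. The highest values on the 4 arrays were between 14.82 and 14.91. The 4 P450 genes listed as PXR-responsive were Cyp3a11, Cyp3a13, Cyp2b10 and Cyp2c55. All 4 were lower after DEN on each diet, with medians of -0.63 on the CA diet and -0.25 on the control diet. Of these, only Cyp2b10 passed 2-fold (background 1.75% and 0.900%). All but Cyp3a13 are also among the 7 listed as CAR-responsive.

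The 2 expressed genes of family 1 differed from each other. Cyp1a2, which metabolises caffeine and aromatic amines and is expressed in liver without an inducer, had 10.78 in the DEN with CA pool, 11.11 in the DEN pool, 12.29 in the CA pool and 12.29 in the control pool. It was 2.86-fold lower after DEN on the CA diet and 2.26-fold lower on the control diet. Cyp1a1, the inducible oxidase of polycyclic hydrocarbons, had 5.68 in the DEN with CA pool, 4.88 in the DEN pool, 5.08 in the CA pool and 4.95 in the control pool. Only the pool with both treatments was off the low level of the other 3, at 1.52-fold over CA and 1.75-fold over DEN. Cyp1b1 and Cyp2s1, other genes listed as AhR-responsive, were not expressed by the limit used, with values from 4.16 to 4.93. Of further AhR targets, Tiparp stood at 7.05, 6.75, 7.35 and 6.66 in the order DEN with CA, DEN, CA and control, and Ahrr was below 4.851 in every pool. Nqo1 was higher after DEN, with 7.74 in the DEN with CA pool, 7.16 in the DEN pool, 5.78 in the CA pool and 5.71 in the control pool. It is a target of both AhR and NRF2.

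In the 2d subfamily, 1 member passed 2-fold, Cyp2d13, which RefSeq lists as a transcribed pseudogene and which is the only member it does not list as protein coding. It had 7.54 in the DEN with CA pool, 7.96 in the DEN pool, 9.33 in the CA pool and 9.05 in the control pool, and was 3.47-fold lower after DEN on the CA diet and 2.13-fold lower on the control diet. Its other probe set was lower as well, at -1.61 and -1.24. Other 2d genes differed less: Cyp2d9, the male-biased testosterone hydroxylase, stood at -0.70 on the CA diet and -0.84 on the control diet, and Cyp2d26 at 0.06 and 0.21. Cyp2d10 had 12.71 in the DEN with CA pool, 12.81 in the DEN pool, 12.96 in the CA pool and 12.92 in the control pool.

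Single members of other subfamilies lay mostly below 0. Cyp2j5, an epoxygenase of arachidonic acid, had 10.68 in the DEN with CA pool, 11.06 in the DEN pool, 11.86 in the CA pool and 11.89 in the control pool. It was 2.25-fold lower after DEN on the CA diet and 1.78-fold lower on the control diet, and its other probe set was at -1.06 and -1.01. Cyp2j6 was slightly higher after DEN on the probe set used (0.24 and 0.12) and slightly lower on the other (-0.25 and -0.27), so that its direction is not settled. Cyp2e1, the ethanol oxidase that also activates nitrosamines, had 13.53 in the DEN with CA pool, 13.75 in the DEN pool, 14.14 in the CA pool and 14.18 in the control pool, and was 1.52-fold lower after DEN on the CA diet and 1.35-fold lower on the control diet. Cyp2f2, known for oxidising naphthalene in mouse lung and liver, had 12.67, 12.56, 13.51 and 13.36 in this order, and the lung club cell markers Scgb1a1 and Scgb3a2 were below 4.851 on every array. Cyp2g1, an olfactory P450, had 4.36, 4.57, 5.53 and 5.78 in this order, which puts both DEN pools near background and makes the DEN differences at least 1.60-fold on the CA diet and at least 1.90-fold on the control diet, short of the 2-fold that its measured values pass. Cyp2r1, a vitamin D hydroxylase, had 7.77, 7.95, 8.09 and 8.47. Cyp2u1, a fatty acid hydroxylase, had 6.93, 6.68, 7.16 and 7.21. Cyp2a12, which rehydroxylates secondary bile acids in mice, had 11.96, 12.07, 12.52 and 12.11, highest in the CA pool.

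Against these stood Cyp2b9 and Cyp2b13, both known as female-biased genes of the mouse liver. Cyp2b9 had 8.56 in the DEN with CA pool, 8.85 in the DEN pool, 7.20 in the CA pool and 4.87 in the control pool. It was 2.58-fold higher after DEN on the CA diet. On the control diet it was 15.8-fold higher by its measured values. The control value of 4.87 is next to the 4.851 limit, which makes this fold uncertain. Cyp2b13 had 6.83 in the DEN with CA pool, 6.53 in the DEN pool, 6.48 in the CA pool and 4.66 in the control pool, which makes it at least 3.20-fold higher in the DEN pool than in the control pool. For both genes the control pool was at or near the background level and the other 3 were above it. Each has 1 probe set here, and whether these read each other's transcripts was not tested. Cyp2b19, the other measured 2b gene, known from skin, was below 4.851 on every array.

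The other 2 expressed P450 genes of the female-biased list did not share this, Cyp2c38 being lower after DEN (-0.29 on the CA diet and -0.77 on the control diet) and Cyp3a44 also (-0.29 and -0.21). Of 3 expressed female-biased genes outside these families, Cyp17a1, the steroid hydroxylase, was higher after DEN (2.68 on the CA diet and 2.44 on the control diet), Cux2 stood at -0.08 and -0.15, and Acot3 at -1.06 and -0.84. Of 6 expressed male-biased genes, 3 were lower by 2-fold or more after DEN on each diet, namely Slco1a1, Cyp7b1 and Hsd3b5. The background for this was 1.75% on the CA diet and 0.900% on the control diet. The gene Elovl3 was higher by that much on the CA diet (1 of 6, background 4.75%).

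The question for the CA diet without DEN is which P450 genes go with a bile acid load. The 3 expressed 2b genes were at least 2-fold higher in the CA pool than in the control pool and no other member was (background 0.660%), while no member was lower by that much (background 0.592%). Cyp2b9 was 5.03-fold higher from a control value near background, Cyp2b13 at least 3.10-fold higher and Cyp2b10 2.48-fold higher. The probe set of Cyp2b10 that is not of the cross-reading kind gave 0.98. Cyp2c55 followed with 1.81-fold, and Cyp2c38 was 1.79-fold lower. The median of all 32 was 0.07, against 0.01 over all expressed genes, and 21 of the 32 were above 0 (background 52.9%). In size, 21 of the 32 were within the largest difference of a hybridization control (background 82.2%). Cyp3a11 stood at 0.07, Cyp1a2 at 0.00 and Cyp2e1 at -0.05.

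After DEN the CA diet went with another pattern. In the DEN with CA pool against the DEN pool, 1 member passed 2-fold downwards (background 0.472%), Cyp2c54 at 2.12-fold, and none upwards (background 0.266%), the highest being Cyp1a1 at 1.75-fold. None of the 2b genes reached 2-fold: Cyp2b9 stood at -0.29, Cyp2b10 at -0.41 and Cyp2b13 at 0.30. Its 3 probe sets put Cyp2b10 at -0.28, -0.41 and -1.10. The probe set at -1.10 read 4.43 in the DEN with CA pool, under 4.851, so the size of that difference is uncertain. Of the 32, 17 were below 0 (background 54.8%). The median was -0.09, against -0.02 over all expressed genes, and 20 of the 32 lay within the largest difference of a hybridization control (background 80.3%). For DEN, 11 of 32 lay within it on the CA diet (background 69.3%) and 8 of 32 on the control diet (background 46.4%). The lowest value lay in the DEN with CA pool for 15 members (background 28.4%). Both CA pools lay above both control diet pools for Cyp1a1, Cyp2c55 and Cyp2d26 (3 of 32, background 9.95%) and below them for Cyp2c38 and Cyp2c68 (2 of 32, background 11.9%).

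The CA diet differences without and after DEN thus differed for the 2b genes. After DEN minus without DEN, the difference of both was -2.62 for Cyp2b9, -1.72 for Cyp2b10 and -1.51 for Cyp2b13, and for the other 29 members it was less than 1 in size. Over all expressed genes, 0.729% had a value of -1 or lower and 0.437% of 1 or higher. The value of Cyp2b9 rests on its control level near background. Across the 32 members the 2 diet differences, which share no array, correlated at 0.17 (Pearson) and 0.32 (Spearman), where all expressed genes gave 0.41 and 0.26. The DEN differences on the 2 diets correlated at 0.77 and 0.84 across members, with 31 of 32 on the same side of 0, Cyp1a1 being the exception. All expressed genes gave 0.86 and 0.75, with 76.1% on the same side. These figures run across genes of the same 4 arrays and are descriptions.

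**Figure D3:**
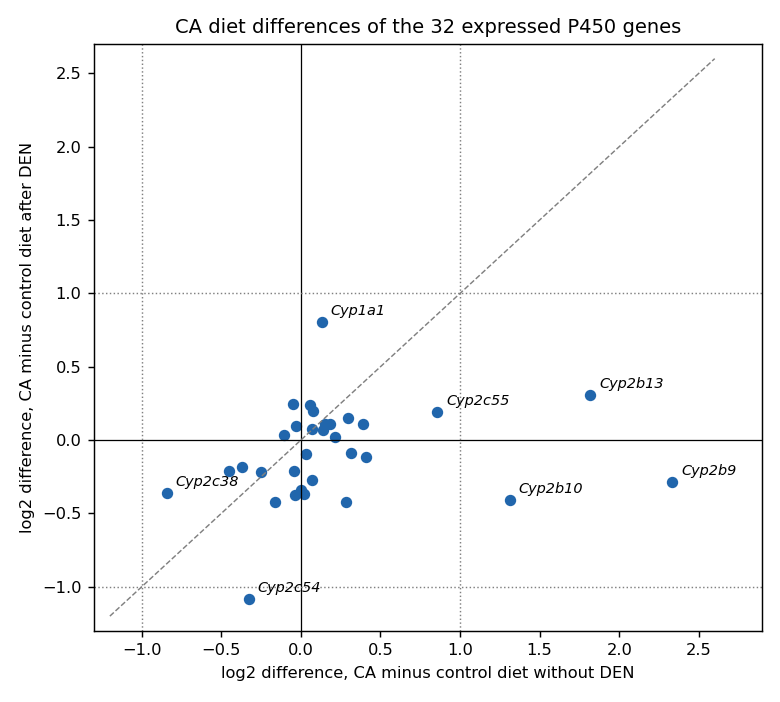
CA minus control diet log2 differences of the 32 expressed P450 genes without DEN (horizontal axis) and after DEN (vertical axis), with dotted lines at 2-fold and a dashed line of equality. The 3 2b genes lie to the right, at 1.31 to 2.33 without DEN, but between -0.41 and 0.30 after DEN.

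The receptors and partners of these genes were measured on the same arrays. Nr1i3, which encodes CAR, had 7.23 in the DEN with CA pool, 7.24 in the DEN pool, 8.44 in the CA pool and 8.25 in the control pool, and was 2.32-fold lower after DEN on the CA diet and 2.02-fold lower on the control diet. Ahr had 8.23 in the DEN with CA pool, 9.30 in the DEN pool, 9.51 in the CA pool and 10.03 in the control pool, lowest in the pool in which Cyp1a1 was highest. Nr1i2, which encodes PXR, had 7.48, 7.29, 8.19 and 7.23 in this order and was 1.95-fold higher in the CA pool than in the control pool. Arnt, the partner of AhR, differed by at most 0.18 in size over the 4 comparisons, and Rxra, the partner of CAR and PXR, stood at -0.44 after DEN on the CA diet and at -0.20 on the control diet.

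Genes outside the P450 families that CAR or PXR are known to induce did not differ in one direction. Of the 8 measured, 1 was higher and 2 were lower by 2-fold or more after DEN on the CA diet (background 4.75% and 1.75%). On the control diet 3 were higher and 2 lower (background 5.12% and 0.900%). Alas1, the rate-limiting enzyme of haem synthesis, had 9.69 in the DEN with CA pool, 9.83 in the DEN pool, 12.01 in the CA pool and 11.24 in the control pool, an order of the pools like that of Cyp2b10. Gstm3, a glutathione transferase, had 12.09 in the DEN with CA pool, 11.63 in the DEN pool, 10.73 in the CA pool and 9.40 in the control pool, the opposite of Cyp2b10 for DEN. Without DEN, 3 of the 8 were at least 2-fold higher on the CA diet, namely Abcb1a, Gstm1 and Gstm3 (background 0.660%). None was lower by that much (background 0.592%). Cyb5a, which passes electrons to P450 enzymes, differed by at most 0.21 in size. Por, their reductase, is not analysed here.

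Lobular position was looked at through genes that are not members. The 7 pericentral genes, Glul among them, had medians of -0.46 on the CA diet and -0.71 on the control diet after DEN. Lower by 2-fold or more were 2 and 1 of them (background 1.75% and 0.900%). For the CA diet without DEN their median was -0.45. The 7 measured periportal genes had medians of -0.48 and -0.23 after DEN and 0.05 for the CA diet. Both lists thus had medians below 0 after DEN on both diets. Their part in the P450 values was not tested.

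**Figure D4:**
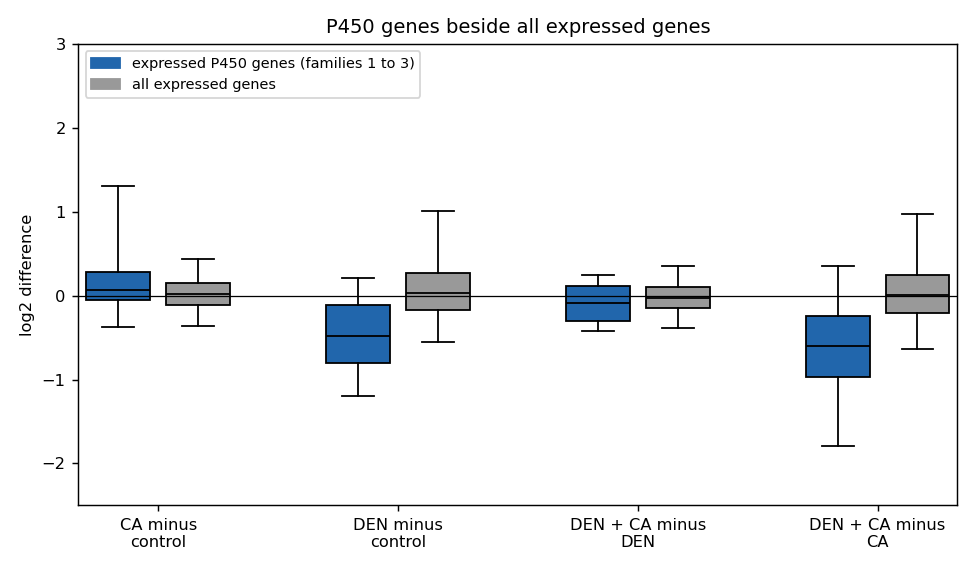
Log2 differences of the 32 expressed P450 genes (blue) and of all 11664 expressed genes (grey) in the 4 comparisons; boxes span the quartiles with a line at the median, and whiskers run from the 5th to the 95th percentile. The P450 boxes lie below 0 in both DEN comparisons, with medians of -0.48 and -0.60, and around 0 in both diet comparisons.

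The 10 members under the limit were Cyp1b1, Cyp2b19, Cyp2c39, Cyp2c65, Cyp2d12, Cyp2d34, Cyp2j11, Cyp2j13, Cyp2s1 and Cyp3a16. Over all 42 members the medians were -0.32 after DEN on the CA diet and -0.42 on the control diet. Cyp2d12, just outside the limit with a mean of 4.849, had 4.85 in the DEN with CA pool, 4.57 in the DEN pool, 4.94 in the CA pool and 5.05 in the control pool. Cyp2g1, Cyp2d40 and Cyp1a1 were the members just inside it, with means of 5.06, 5.11 and 5.15.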

How the data were processed

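The deposited values are log2 expression values that the authors made by RMA, using Partek 6.5 per the submitters' processing notes, from Affymetrix mouse arrays of 45101 probe sets. RMA corrects background, makes the arrays' distributions alike and summarises probes, so that a shift shared by most genes would be removed. Detection calls were not used here, and the number of arrays limits the precision. Total RNA of pooled livers was labelled with biotin, per the labels' protocols.

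Probe sets were named by the platform annotation supplied with the values: 34958 had 1 symbol, 932 several and 9211 none here. Where a gene had several probe sets, the one with the largest average of all 4 arrays was used. All 42 members matched RefSeq gene identifiers, and 0 symbols changed; 7 had several probe sets. A gene counted as different from 2-fold on, a log2 difference of 1. Levels under 4.851 were raised to it for folds, which are then given as "at least". No test was made, because each group is 1 array.

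The text names each expressed member that was 2-fold different in any of 4 comparisons, the member with the highest mean of each subfamily, and a fixed set of receptor-driven genes and receptors, 22 members in all, with others added for ranges and neighbours. Members and lists were chosen with earlier results of these data known. Steps were tested on simulated data. Alternatives were other filters, quantile normalization, centring on the median, other choices of probe set, raised low values and a 1.5-fold threshold. Python 3.11.15, numpy 2.4.6, pandas 2.3.3 and matplotlib 3.10.9 were used, and pairwise alignments were global.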

Additional observations from a re-analysis of the deposited data

Results flagged for a closer look

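Cyp2b9 and Cyp2b10 had CA diet differences of opposite sign without and after DEN, at least one of them over 2-fold. Cyp2b9 stood at -0.29 after DEN and at 2.33 without DEN. Its value after DEN was -0.24 with quantile normalization and with centring. The largest difference of a hybridization control after DEN was 0.267 in the deposited values. Without DEN, the Cyp2b9 difference starts from a control value of 4.87, near background. Cyp2b10 stood at -0.41 after DEN and at 1.31 without DEN. With 1 array per group the difference was not tested.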

How the results depend on the processing

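No paired analysis was possible because each group is 1 array, and for the same reason no replicate could be left out. Among single named members no difference of 2-fold or more changed sign under quantile normalization, centring, either other choice of probe set or raised low values. Cyp2b10 dropped under 2-fold (0.98) for the CA diet without DEN when _s_at probe sets were left out, and Cyp2g1 (-0.92 on the control diet, -0.67 on the CA diet) for DEN when low values were raised. Centring the arrays on the median of the expressed genes shifted the median difference of all genes by -0.16 for DEN on the control diet, and put the members' median at -0.65. Over all 42 members the median for DEN on the CA diet was -0.32. With a filter at the upper quartile, 1 member was 2-fold higher after DEN on the control diet in place of 2. A 1.5-fold threshold gave 1 lower member for the CA diet without DEN, 13 lower for DEN on the control diet and 1 higher for the diets after DEN. For DEN on the CA diet it gave 2 higher and 17 lower. Shares of all expressed genes at this threshold are not given, so these counts cannot be set against the array. The difference of diet effects was -1.26 for Cyp2b10 without _s_at probe sets and -1.33 for Cyp2b13 with low values raised, in alternatives chosen after seeing the data. Levels near background limit Cyp1a1, Cyp2g1 and the control pool's Cyp2b9 and Cyp2b13.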
